A study of Homo sapiens with 12 samples.

Results

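The 4 libraries of wild-type HepG2 cells were examined on their own, as a picture of the parent line in medium with glycine. They were taken by their titles, WT_CTR1 to WT_CTR4, and are 4 of the 12 libraries of the series. HepG2 is an established line from a human hepatocellular carcinoma, labelled a hepatocarcinoma cell, and it stands for a transformed hepatocyte in monoculture. The other 8 libraries come from lines made from it with lentivirus and, per the methods, selection with blasticidin, with no picking of clones stated. In 4 of them (shTST) a short hairpin RNA was directed against thiosulfate sulfurtransferase (TST), the mitochondrial rhodanese that joins cyanide to sulfur to give thiocyanate. In the other 4 (overTST) a codon-optimised TST was overexpressed from a CMV promoter. Every group was kept in normal culture medium with 400 µM glycine for 24 h, so no library lacks glycine and its effect is not measured here. No library is labelled as carrying an empty vector or a control hairpin, so transduction and selection cannot be told apart from the change in TST. Each replicate is described as independent, and RNA was extracted, sequenced and counted per gene. The paper's methods do not state whether poly(A) RNA was selected or ribosomal RNA removed, so the transcript shares hold for these libraries as prepared.

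Hepatocytes are the main secretory and metabolic cells of the liver. They make most plasma proteins, package cholesterol and triglyceride into lipoproteins, turn ammonia into urea, break down amino acids, and clear drugs and bile acids. This programme is switched on by factors such as HNF4A, FOXA2 and CEBPA, and tumour cells keep it only in part while they divide. Messenger RNA also comes from the mitochondrial chromosome, which encodes 13 proteins of the respiratory chain and ATP synthase that are transcribed as long precursors and then cut.

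The WT libraries held 28866175 to 45120508 counts. Levels are given as TPM, the count of a gene divided by its exonic length and scaled so that all genes of a library add up to the same total, so that genes of different length can be set side by side. The 4 hepatocyte markers were all high. Albumin (ALB, chr4:73397114-73421412, plus strand) had 5560.3, 4235, 5467 and 3962 TPM in WT replicates 1 to 4. Alpha-fetoprotein (AFP, chr4:73431138-73456174, plus strand), its fetal counterpart, had 1993, 1529.8, 2019 and 1445 TPM. Apolipoprotein A-I (APOA1, chr11:116835751-116837950, minus strand), the main protein of high-density lipoprotein, had 3708, 2956, 4036 and 2994 TPM, and alpha-1 antitrypsin (SERPINA1, chr14:94376747-94390693, minus strand), the protease inhibitor of plasma, had 3343, 2660.1, 3355 and 2606. All 4 ranked within the highest 49 of 57500 genes, and each was lower in replicates 2 and 4 than in replicates 1 and 3. The label is borne out by these levels.

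TST itself (chr22:37010859-37020183, minus strand), which shares exonic bases with its neighbour MPST, had 74, 68.4, 80.7 and 61.9 TPM in the WT libraries. Scaled CPM (counts relative to the library total after TMM scaling, which sets most genes level between libraries) was 47.8 to 52.9 in WT, 33.8 to 37.7 in shTST and 50 to 59.9 in overTST. WT therefore did not overlap shTST, and it overlapped overTST, whose transgene was recoded and need not be counted under this gene. The log2 fold change was -0.52 ± 0.05 (SE, n = 4 per group, edgeR adjusted p = 3.20e-06) in shTST and 0.24 ± 0.06 (adjusted p = 0.00384) in overTST.

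The promoters of 3 of the markers and of EGR1, a growth-induced transcription factor that was among the most variable genes, are shown because they carry recognisable letters for liver expression and for serum induction. Each line gives 170 bases from RefSeq (GRCh38.p14), from 150 bases before to 20 after an annotated start, and for SERPINA1, which has several annotated starts in this table, the start whose window holds the match is shown.
ALB, chr4:73404137-73404306, plus strand, GTTAAT in capitals: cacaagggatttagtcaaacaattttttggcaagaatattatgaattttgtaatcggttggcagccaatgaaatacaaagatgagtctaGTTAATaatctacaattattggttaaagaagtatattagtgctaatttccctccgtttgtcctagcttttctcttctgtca
AFP, chr4:73436071-73436240, plus strand, GTTAAT in capitals: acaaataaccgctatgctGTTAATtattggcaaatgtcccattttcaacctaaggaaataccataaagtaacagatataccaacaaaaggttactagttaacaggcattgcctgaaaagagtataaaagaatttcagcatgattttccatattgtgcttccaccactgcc
SERPINA1, chr14:94388583-94388752, minus strand, GTTAAT in capitals: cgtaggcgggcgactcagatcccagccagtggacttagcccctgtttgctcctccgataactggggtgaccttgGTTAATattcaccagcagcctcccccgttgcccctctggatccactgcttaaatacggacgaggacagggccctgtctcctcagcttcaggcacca
EGR1, chr5:138465329-138465498, plus strand, CArG boxes in capitals: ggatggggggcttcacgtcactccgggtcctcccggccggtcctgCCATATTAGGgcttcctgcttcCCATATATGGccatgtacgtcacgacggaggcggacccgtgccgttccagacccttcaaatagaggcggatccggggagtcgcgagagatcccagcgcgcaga
GTTAAT, letters found in the promoters of many liver genes, stands once in each of the 3 liver promoters shown. Searched on both strands, it was present in 6.88% of all 35116 promoter windows of 300 bases. The CArG box, bound by serum response factor, occurs 2 times in EGR1 and in 1.29% of all windows. The match lies at -61 to -56 in ALB, -132 to -127 in AFP and -76 to -71 in SERPINA1, counted from the start. APOH, another of the highest nuclear genes, also holds GTTAAT, at -49 to -44 and, on the other strand, at -210 to -205. FTL, the highest nuclear gene, has no GTTAAT in its window, whereas SMAD7, a variable gene, holds it at 29 to 34 on the other strand. JUNB and DUSP1, also variable genes, have no CArG box in theirs. These matches describe the letters only.

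A few genes took much of the transcript pool. The 100 highest genes held 46, 50.6, 45.8 and 55.4% of all TPM in replicates 1 to 4 (49.4% ± 4.54, SD, n = 4), and 154, 93, 155 and 49 genes were enough to reach 50%. The mitochondrial chromosome moved with this difference. Its genes held 28.8, 35.5, 28.3 and 41.4% of TPM, with replicates 2 and 4 above replicates 1 and 3. With that chromosome taken out of the total, the 100 highest genes held 26.7, 26.1, 27.1 and 26.8% and the SD was 0.4 percentage points. At the other end, 12408 genes reached 1 TPM in every WT library, 1148 reached 100 TPM and 76 reached 1000 TPM, while 30252 genes had no count in any of the 4. The lowest of the 100 highest genes was NDUFS5 at 819 TPM, and BSG at 816 TPM was next below.

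The mitochondrially encoded proteins led the ranking. The 13 of them together held 24.9, 32, 24.3 and 37.2% of TPM. MT-ATP6, a subunit of the proton channel of ATP synthase, had 39659, 52725, 34619 and 59580.4 TPM. MT-CO1, the catalytic subunit of cytochrome oxidase, had 30001, 36998, 30997 and 44009 TPM, and MT-ND4, of complex I, 19061, 25704, 19682 and 32149 TPM. Replicate 4 was highest for each of the 13. MT-ND5, the lowest, still had 7403 ± 1674 TPM (mean ± SD, n = 4). MT-ATP8 (45262 ± 11824 TPM) shares bases with MT-ATP6, and MT-ND4L with MT-ND4, so reads in those stretches cannot be assigned to either, and the near-copy MTATP6P1 on chromosome 1 (2445 ± 585 TPM) may draw reads from MT-ATP6. Transfer RNA genes of about 70 bases, such as MT-TN (9778 ± 2366 TPM), ranked high in TPM because few reads are divided by a short length. By reads MT-TN stood at rank 640. The deposited counts hold 35 genes of this chromosome, the 13 proteins and 22 transfer RNA genes. Ribosomal RNAs of the mitochondrion are not among them, so no share given here includes them.

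By share of reads, with no division by length, the same chromosome still led but long transcripts moved up. MT-CO1 took 1.99% of all counts on average. The highest nuclear genes were the elongation factor EEF1A1 with 0.993%, APOB, the scaffold of very-low-density lipoprotein with an exonic length of 14828 bases, with 0.79%, and fibronectin (FN1, 17315 bases) with 0.724%. In TPM these stood at ranks 21, 55 and 72.

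Among nuclear genes, ferritin light chain was far ahead. FTL, a subunit of the iron-storage shell (chr19:48965301-48966878, plus strand), had 21480.2, 19748, 21831 and 16014 TPM, several times the level of any other nuclear gene in each library. APOA2, of high-density lipoprotein, followed with 4959, 4550.3, 5777 and 4146 TPM and overlapped albumin across libraries. Next came EEF1A1 (4662 ± 429), beta-actin (ACTB, 4418 ± 525), the chaperone HSP90AB1 (3924 ± 355), ACTG1 (3886 ± 349.8), APOA1 (3424 ± 535) and the elongation factor EEF2 (3216 ± 156). Neighbours in this order overlapped in their range over the 4 libraries. Within each library, though, EEF1A1 stood above ACTB, ACTB above HSP90AB1, and ACTG1 above APOA1, while other neighbours changed places. RPL13A, YBX1, GAPDH, APOH, SERPINA1, RPS2, AHSG, LYZ, RPL8 and the near-copy MTATP6P1 were also among the 20 highest nuclear genes, all between 2429.9 and 3099.9 TPM. Of these 20, 6 are plasma proteins or apolipoproteins (APOA2, ALB, APOA1, APOH, SERPINA1 and AHSG). LYZ, lysozyme, is better known from myeloid cells and had 2745, 2644, 2779.5 and 2321 TPM. Of the immune markers, PTPRC, the common leukocyte antigen, had no count in any WT library, whereas CD14 and CD68 reached 1 TPM in every one. EEF1A1, APOA1, GAPDH and LYZ share exonic bases with an antisense or overlapping gene, and RPL13A, RPS2 and EEF2 with small nucleolar RNA genes.

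**Figure D1:**
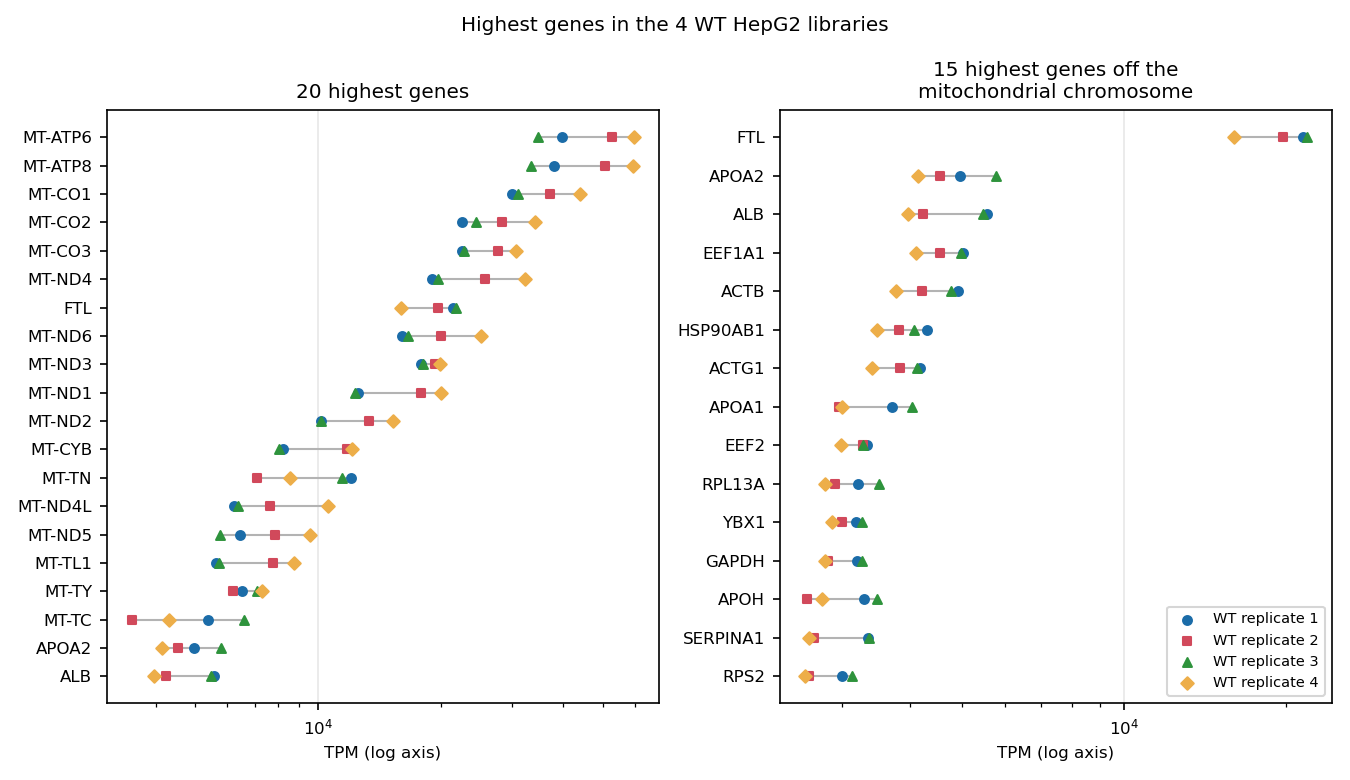
TPM (log axis) of the 20 highest genes (left) and of the 15 highest genes off the mitochondrial chromosome (right) in each of the 4 WT libraries, with a grey line from the lowest to the highest library. Mitochondrially encoded proteins are highest in replicate 4, FTL lies between 16014 and 21831 TPM, and all genes of the right panel are lowest in replicate 2 or 4.

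Grouped by function, translation took the largest nuclear share. The 79 cytosolic ribosomal proteins held 5.88, 5.1, 6.22 and 5.02% of TPM, and 76 of them reached 100 TPM in every WT library. The 19 genes of iron and metal handling held 2.66, 2.42, 2.68 and 2%, of which FTL made up 81%. Plasma carriers and acute-phase proteins (36 genes) held 2.4, 1.94, 2.42 and 1.85%, the cytoskeleton (20 genes) 2.1, 1.89, 2.11 and 1.7%, and apolipoproteins and lipoprotein assembly (22 genes) 1.63, 1.37, 1.77 and 1.32%. Chaperones (16 genes) held 1.44% ± 0.146, translation factors (15 genes) 1.24% ± 0.0986 and glycolysis (15 genes) 0.977% ± 0.0698 (SD, n = 4). At the foot, the 21 cytochrome P450 enzymes held 0.00387% ± 2.20e-04. The share of each of the 11 liver lists other than cytochrome P450 enzymes was lower in replicates 2 and 4 than in replicates 1 and 3, the reverse of the mitochondrial share. As a share of the nuclear total, plasma carriers held 3.37, 3.01, 3.37 and 3.16% and ribosomal proteins 8.26, 7.91, 8.67 and 8.56%. On that scale bile acid genes held 0.139, 0.145, 0.147 and 0.144% and sugar metabolism 0.128, 0.137, 0.136 and 0.149%. Once the mitochondrial chromosome was left out, the lower share in replicates 2 and 4 thus did not hold for most liver lists. It held only for plasma carriers, apolipoproteins and complement.

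**Figure D2:**
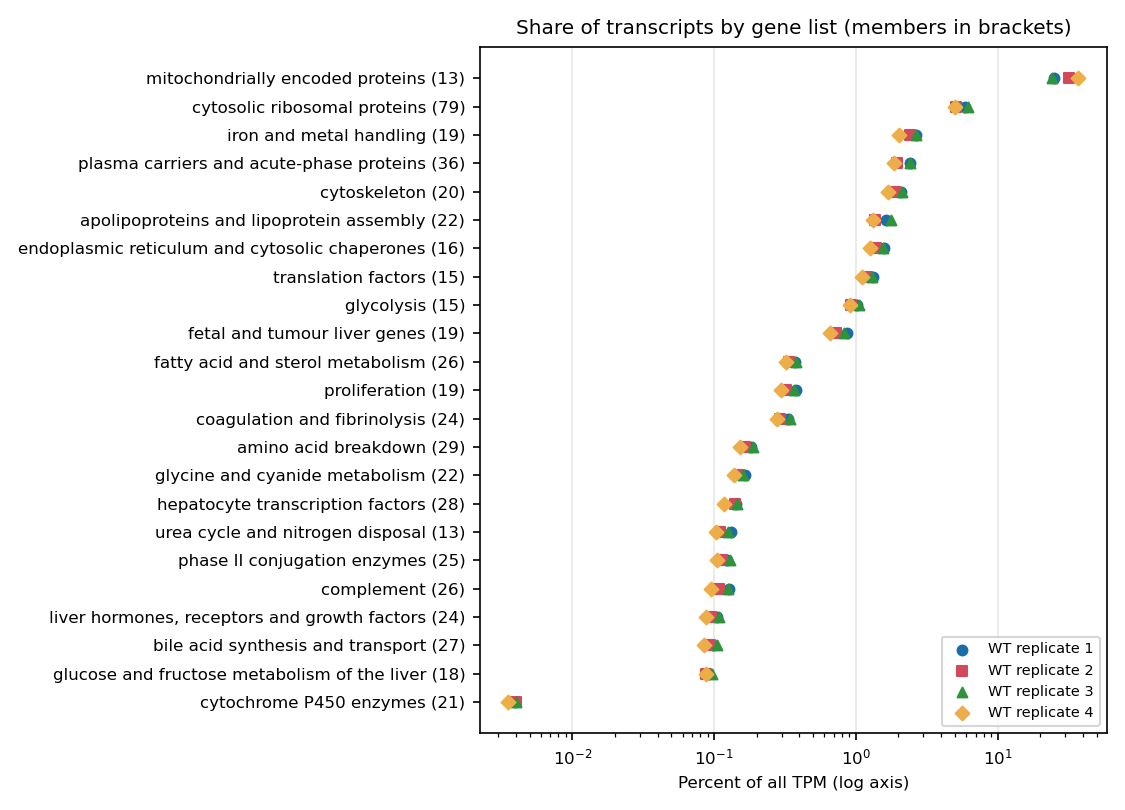
Percent of all TPM (log axis) held by each of 23 gene lists in the 4 WT libraries, with the number of members in brackets. Mitochondrially encoded proteins hold between 24.3 and 37.2%, ribosomal proteins between 5.02 and 6.22%, and cytochrome P450 enzymes between 0.00355 and 0.00403%.

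The liver genes were taken from 11 lists that cover secretion, lipid transport, clotting, complement, drug and bile acid handling, nitrogen, amino acids, sugar and hormones. Of their 265 genes, each counted once, 190 reached 1 TPM in every WT library, 49 reached 100 TPM and 12 reached 1000 TPM. At the same time 43 stayed under 0.1 TPM in all 4, or 16.2%, beside 30.6% of the 19737 protein-coding genes. Of these 43, 23 had no count at all and 16 had 1 to 5 counts over the 4 libraries together. A count of 0 allows 3 counts, which for these genes is 0.0191 to 0.407 TPM in a single library depending on length and depth (counting error only). The floor was at or under 0.1 TPM in every library for 17 of the 43. For the others a level just above 0.1 TPM could be missed in some or all single libraries. HRG (0.0994 TPM in its highest library), CYP3A4 and UGT2B15 lay just under the level, and SDS (0.101 TPM), KMO and CYP3A43 just above it.

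Plasma carriers were dominated by a small set. Of the list, 27 of 36 members reached 1 TPM in every WT library and 5 stayed under 0.1 TPM in all 4. After ALB and SERPINA1 came AHSG, a mineral-binding carrier (2929, 2519, 2996 and 2341 TPM), and AMBP, the precursor of alpha-1-microglobulin (2286, 1929.8, 2397 and 1891 TPM). RBP4, the retinol carrier, had 1390.5 ± 151 TPM, ITIH2, which binds hyaluronan, 1355 ± 194, AGT, the precursor of angiotensin, 1080.5 ± 104 and transferrin (TF) 660.1 ± 93.3. The acute-phase proteins were split. ORM1 had 509 ± 61.6 TPM and the constitutive SAA4 239.5 ± 30.4, whereas the inducible SAA1 and SAA2, C-reactive protein (CRP) and APCS had no count in any WT library and PZP had 15 counts in all. SAA1 and SAA2 are near-identical, so reads from either could be lost as ambiguous. Transthyretin (TTR), which carries thyroid hormone, had 127, 122, 135 and 109 TPM, whereas vitamin D binding protein (GC) had only 0.275, 0.36, 0.211 and 0.0637 TPM.

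Apolipoproteins also had both very high and absent members. Of the list, 17 of 22 members reached 1 TPM in every WT library and 2 stayed under 0.1 TPM in all 4. APOA2, APOA1 and APOH together made up 74.3% of its TPM. APOE, a ligand of lipoprotein receptors, had 1699, 1421, 1958 and 1267 TPM and APOB 1696, 1497, 1453 and 1304, and the ranges of these overlapped. The lipase inhibitor APOC3 had 169.7 ± 27.3 TPM, the transfer protein MTTP, which loads lipid onto APOB, 19 ± 1.96 and the esterifying enzyme LCAT 33.2 ± 3.85. LPA, which encodes apolipoprotein(a), and APOC4 had no count. APOC4 shares exons with the read-through gene APOC4-APOC2, which had 19.9 ± 2.4 TPM, so its 0 is uncertain.

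Clotting factors were mostly present. Of the list, 19 of 24 members reached 1 TPM in every WT library and 2 stayed under 0.1 TPM in all 4. The plasmin inhibitor SERPINF2 had 510.2, 481, 585 and 427 TPM, the fibrinogen chain FGA 538, 444, 528 and 473 and prothrombin (F2) 502, 468, 523 and 417. These levels overlapped across libraries, and the other fibrinogen chains had 372 ± 42.5 (FGG) and 135 ± 12.8 TPM (FGB). F9, clotting factor IX, had no count, HRG had 15 counts over the 4 libraries, and plasminogen (PLG) had 0.15 ± 0.0177 TPM. In the complement system, 18 of 26 members reached 1 TPM in every WT library and 7 stayed under 0.1 TPM in all 4. C3, on which all activation routes converge, had 867, 755, 850.4 and 648 TPM and made up 68.4% of the list. CFI, a C3b-cleaving protease, had 74 ± 10.4 TPM, C2 62.7 ± 9.16 and C5 40.6 ± 5.64, and the near-identical C4A and C4B had 28.6 ± 3.99 and 21.6 ± 2.68, which the counting may have split. C9, of the membrane attack complex, and CFHR2, CFHR3 and CFHR4 had no count, and CFHR5 had 1.

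Drug-metabolising enzymes of phase I were the lowest of the liver functions. Of the cytochrome P450 enzymes, 8 of 21 members reached 1 TPM in every WT library and 10 stayed under 0.1 TPM in all 4, and the median member had 0.057 TPM, beside 10.3 TPM over all 265 liver genes. CYP4F11 was highest with 13.1, 12.2, 13.3 and 12.2 TPM. CYP1A1, which is induced through the aryl hydrocarbon receptor, had 4.95, 8.04, 4.63 and 4.72 TPM and was highest in replicate 2. The fetal CYP3A7 had 0.847, 0.677, 0.541 and 0.472 TPM, whereas the adult CYP3A4 had 9 counts in all. CYP2C8, CYP2C19 and CYP4A11 had no count, CYP1A2 and CYP2A6 had 1, CYP2E1 had 2, CYP2C18 had 3 and CYP2B6 had 4. Members of the CYP2C and CYP3A families are similar in sequence and their counts are uncertain to that extent.

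Conjugation enzymes were better represented. Of the list, 17 of 25 members reached 1 TPM in every WT library and 5 stayed under 0.1 TPM in all 4. The glutathione transferase GSTO1 had 325, 313, 367 and 288 TPM, the epoxide hydrolase EPHX1 232, 229, 239 and 197 and the sulfotransferase SULT2A1 128, 117, 132 and 103. GSTA1 had 95 ± 8.82 TPM. GSTP1 had 1 count, GSTM1 6 counts and the methyltransferase NNMT none. UGT2B10 and UGT2B7 had 86.4 ± 11.8 and 34.4 ± 2.91 TPM while their close relatives UGT2B15 and UGT2B17 had 3 counts and none.

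For bile acids, 19 of 27 members reached 1 TPM in every WT library and 4 stayed under 0.1 TPM in all 4. FGFR4, the receptor through which the gut signals to shut down synthesis, had 332, 313, 366 and 279 TPM, and its co-receptor KLB 49.7 ± 5.55. CYP27A1, of the alternative synthesis route, had 229.6 ± 21.3 TPM, while CYP7A1, the rate-limiting enzyme of the classic route, had 0.38, 0.27, 0.614 and 0.617 TPM. NR1H4, the bile acid receptor, had 31.4 ± 2.32 TPM and its target NR0B2 94.6 ± 12. The uptake carriers were near or under the level taken as absent, with SLC10A1 at 0.0456, 0.0897, 0.196 and 0.074 TPM, SLCO1B1 at no count and SLCO1B3 at 1 count. The export pump ABCB11 had no count, whereas ABCC2 had 46.7 ± 4.71 TPM.

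Nitrogen and amino acid metabolism was present in most steps. In the urea cycle list, 12 of 13 members reached 1 TPM in every WT library and 0 stayed under 0.1 TPM in all 4. Glutamate dehydrogenase (GLUD1) had 786, 621, 735 and 597 TPM, ASS1, which condenses citrulline with aspartate, 109, 101, 104 and 90.9 and CPS1, the entry enzyme, 11.8, 10, 11.2 and 9.27. Ornithine transcarbamylase (OTC) was lowest with 0.118, 0.309, 0.0635 and 0.239 TPM, and arginase was represented by ARG2 (19.9 ± 2.15) above ARG1 (3.62 ± 1.09). Among enzymes of amino acid breakdown, 23 of 29 members reached 1 TPM in every WT library and 2 stayed under 0.1 TPM in all 4. AHCY, of the methionine cycle, had 566 ± 51.8 TPM and HPD, of tyrosine breakdown, 422 ± 43.7, while TDO2, which opens tryptophan breakdown, and ACMSD had 1 count each. ACMSD overlaps the exons of another gene at up to 3.59 TPM.

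Genes of glycine and cyanide metabolism were mixed as well. Of the list, 15 of 22 members reached 1 TPM in every WT library and 4 stayed under 0.1 TPM in all 4. PSAT1, of serine synthesis, had 611, 520.0, 533 and 494 TPM, SHMT2, which turns serine into glycine in mitochondria, 237, 229, 228 and 206 and GLDC, the decarboxylase of the glycine cleavage system, 107, 88.6, 103 and 82.7. GCSH had 76.8 ± 8.27 TPM, DLD 42.4 ± 4.24 and AMT, the aminomethyltransferase of the same system, 1.63, 0.927, 0.998 and 0.937, the lowest of the 4 subunits in every library. MPST, the sulfurtransferase next to TST, had 68 ± 6.66 TPM. Of the haem peroxidases, PXDN had no count, and MPO (0.053, 0, 0 and 0 TPM), EPX (0.0345, 0.0226, 0.111 and 0.028) and LPO (0.029, 0.019, 0 and 0) were close to none. These are RNA levels only. The paper reports both MPO and PXDN as proteins in HepG2 cells, more in the lysosomal than in the cytosolic fraction. GLYAT, which conjugates glycine in adult liver, had no count, and catalase (CAT) had 65.3 ± 4.8 TPM.

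In sugar metabolism the liver-type and general enzymes parted. Of the liver list, 14 of 18 members reached 1 TPM in every WT library and 2 stayed under 0.1 TPM in all 4. GYS2, liver glycogen synthase, had no count, whereas the general hexokinase HK2 had 71.2, 76.1, 69.4 and 58.3 TPM. PCK1, the cytosolic gluconeogenic enzyme, had 0.849, 0.997, 0.988 and 0.967 TPM against 244, 231, 256 and 215 for its mitochondrial partner PCK2. FBP1, of gluconeogenesis, had 0.419 ± 0.0668 TPM, and ALDOA, of glycolysis, 1142 ± 91.6. Muscle-type pyruvate kinase PKM had 434 ± 35.5 TPM and liver-type PKLR 36.9 ± 2.83, with no overlap between them in any library. LDHA had 721 ± 67.7 TPM, whereas LDHB had 0, 0.0205, 0 and 0 TPM. In fat metabolism none of the 26 listed genes stayed under 0.1 TPM in all 4, and the list was led by SCD (893 ± 89.1) and FASN (788 ± 53.4), which make fatty acids.

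Secreted hormones and surface receptors ended the liver lists. Of these, 16 of 24 members reached 1 TPM in every WT library and 4 stayed under 0.1 TPM in all 4. The asialoglycoprotein receptor chains ASGR2 and ASGR1 had 389, 328, 391 and 314 and 279, 248, 299 and 239.7 TPM. IGF1 had 1 count, its inducing receptor GHR 5 counts and FGF21 2, whereas the fetal growth factor IGF2 had 2092, 1788, 1826 and 1766 TPM. Erythropoietin (EPO), made by fetal liver, had 23.7 ± 2.17 TPM and thrombopoietin (THPO) 23.8 ± 1.27.

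**Figure D3:**
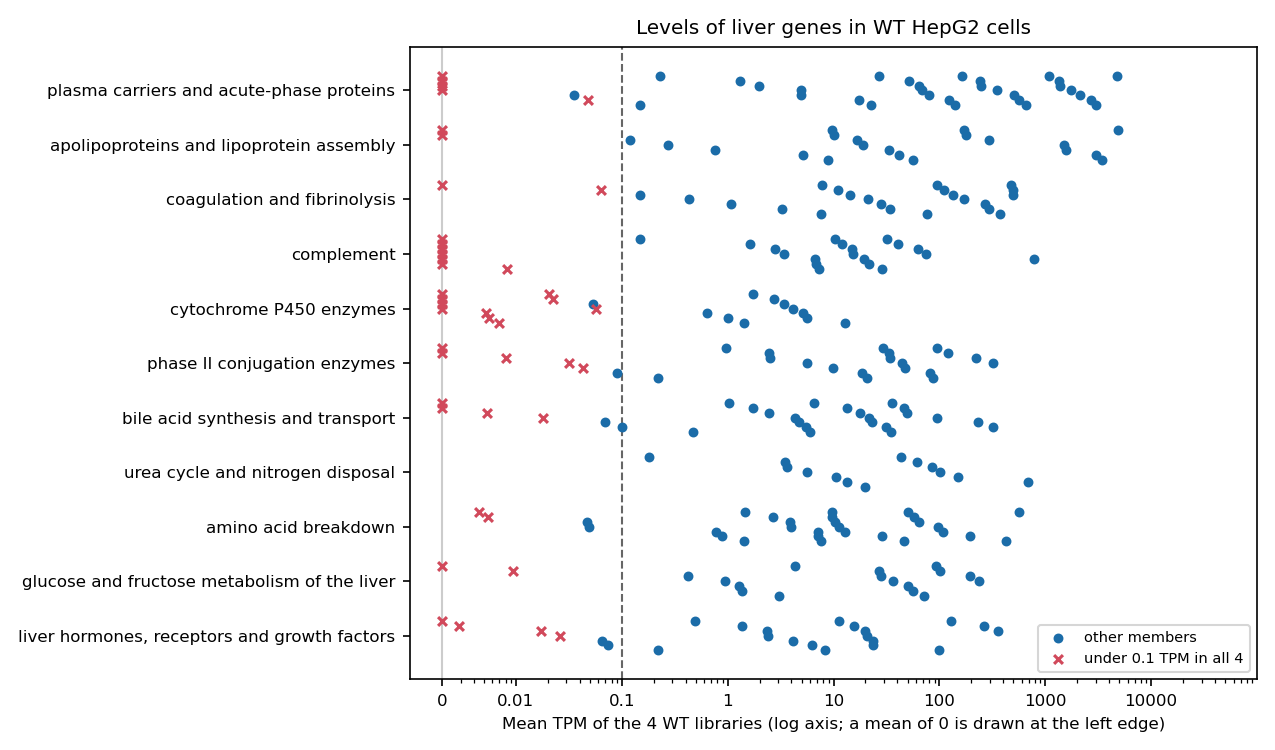
Mean TPM (log axis) in the 4 WT libraries for each member of the 11 liver lists, with genes under 0.1 TPM in all 4 as crosses, the dashed line at 0.1 TPM, and genes with no count at the left edge. The lists reach from no count to 4858 TPM, and cytochrome P450 enzymes stop at 12.7 TPM.

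The regulators of this programme were present. Of 28 listed hepatocyte transcription factors none stayed under 0.1 TPM in all 4, and 26 reached 1 TPM in every WT library. CEBPA had 328, 294, 329 and 256 TPM and HNF4A 162, 151, 161 and 129, while FOXA1 and FOXA2 had 102 ± 13.6 and 96.2 ± 9.04. NR1I3, the constitutive androstane receptor that drives drug metabolism, had 0.565, 0.612, 0.456 and 0.436 TPM, against 8.02 ± 1.4 for the pregnane X receptor NR1I2.

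Genes of fetal liver and liver tumours stood beside those of adult liver. IGF2, AFP and PEG10, an imprinted gene of retrotransposon origin (1727, 1465, 1564 and 1295 TPM), were the highest of 19. The proteoglycan GPC3 had 864, 652, 843 and 510.4 TPM and was lowest in replicate 4. Of 7 bile duct markers, the keratin KRT19 had 623 ± 66.5 TPM, the secreted SPP1 576 ± 67.5 and SOX9 175 ± 19.3, whereas KRT7 (0.0844 ± 0.0414), AQP1, MUC1 and CFTR were under 1 TPM in each library. H19, the imprinted neighbour of IGF2, had 0.231, 0.13, 0.0356 and 0.0268 TPM. Every one of the 19 proliferation genes reached 10 TPM in each WT library, with PCNA, the sliding clamp of replication, at 654 ± 89.

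Most markers of fibroblasts, endothelium, immune cells and red cells were at or near 0. Of 8 fibroblast and stellate markers 5 were under 0.1 TPM in all WT libraries, as were 5 of 8 endothelial, 5 of 8 immune and 4 of 6 red cell markers. Their summed share ranged from 3.61e-05% of TPM for red cell markers in replicate 3 to 0.00678% for fibroblast markers in replicate 1. The members at 1 TPM or more in every library were ACTA2, smooth muscle actin (50.8 ± 7.04 TPM), PDGFRB (8.59 ± 0.569), CD14 (8.18 ± 1.21) and CD68 (2.03 ± 0.722). Members with no count included DCN, LUM, KDR, TEK, PTPRC, CD3E and HBB. In bulk RNA, fewer cells of a type and less RNA per cell cannot be told apart. Vimentin (VIM), the intermediate filament of mesenchymal cells, had 0.0362, 0, 0 and 0 TPM against 1065 ± 86.7 and 1016 ± 67.2 for the epithelial keratins KRT8 and KRT18.

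A low value need not mean a silent gene where annotated genes overlap. EEF1G, a subunit of the elongation factor that every cell uses, had 1.14 ± 0.343 TPM beside 778 ± 76.1 for its partner EEF1B2, and EIF4A1 had 13 ± 1.6. EEF1G shares exonic bases with an unnamed gene on its own strand (2.84 ± 0.443 TPM), and EIF4A1 with SENP3-EIF4A1 and small nucleolar RNA genes. Among the 43 liver genes under 0.1 TPM, 15 overlap another gene and for 4 of them (APOC4, C9, GSTM1 and ACMSD) that gene reached 1 TPM in a WT library.

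The spread between the 4 WT libraries was small for most genes. For each gene with a mean count of 100 or more, the coefficient of variation (CV, SD over mean of scaled CPM) was split into counting error and the rest, called biological CV here although it holds any difference between the cultures and libraries. Its median was 4.77% over 10942 genes, beside 3.98% in shTST and 4.98% in overTST. In WT 128 genes (1.17%) exceeded 20%, beside 52 and 76 genes in the other groups, and 1510 genes varied no more than counting allows. The steadiest among the 500 highest genes were ACTG1, with 4135, 4129, 4147 and 4152 scaled CPM in replicates 1 to 4, DYNLRB1, a dynein subunit, ATP6V1F, of the proton pump, TUBA1B and SERPINA5. Of 14 commonly used reference genes the median biological CV was 4.31% and the highest 7.95% (RPLP0), with ACTB at 3.43% and GAPDH at 4.79%.

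The most variable genes fell into a mitochondrial and a nuclear set. Of the 100 highest by biological CV, 24 lie on the mitochondrial chromosome, 3 are nuclear copies of its genes and 73 are other nuclear genes. The last inside was LINC01234 at 21.4%, and LARP6 at 21.3% was just outside. These genes were chosen by their spread in the same libraries, so the values are a description.

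All 13 mitochondrially encoded proteins were among the 10% of genes with the highest biological CV. MT-ND4 had 8749, 12783, 9171 and 18138 scaled CPM, MT-ATP6 8996, 12958, 7971 and 16612 and MT-CO1 15409, 20589, 16161 and 27783. Replicates 1 and 3 were low, replicate 2 between and replicate 4 high in all 3. MT-ND3 was the steadiest of the 13 with a biological CV of 14.7% and MT-ND4L the most variable with 36.9%. In the 100, replicate 4 was highest for 23 of the 24 genes of this chromosome. The median biological CV of the 13 proteins was 31.6% in WT, 11.9% in shTST and 4.91% in overTST. The part of extraction or culture in this spread was not tested.

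The other variable nuclear genes were mostly high in replicate 2. It was the highest library for 51 of the 73, against 7, 8 and 7 for replicates 1, 3 and 4. Several are immediate-early genes, which serum, growth factors or stress switch on within minutes. JUNB, an AP-1 subunit (chr19:12791496-12793315, plus strand), had 11.3, 28.4, 12.3 and 11.6 scaled CPM. EGR1, whose CArG boxes are shown above, had 37.4, 55.8, 32.3 and 33.7. The phosphatase DUSP1, which switches off MAP kinases, had 10.7, 18.1, 10.8 and 10.5, and the matricellular CCN1 18, 28.8, 16.9 and 16.6. In each of these replicate 2 stood above the other 3, which lay close together. JUNB shares exonic bases with HOOK2 on the opposite strand (6.87 ± 0.76 TPM), so some of its reads may have been left out as ambiguous.

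Other genes were highest in replicate 2 as well. OSGIN1, an oxidative-stress response gene, had 41.1, 84.2, 38.4 and 38.6 scaled CPM. SGK1, the serum and glucocorticoid regulated kinase, had 30.5, 50.4, 27.9 and 26.8, and SMAD7, an inhibitor of TGF-beta signalling, 25.7, 43.3, 23.5 and 23.9. KLF10, another early target of TGF-beta, had 20.7, 33.5, 18.3 and 20.2 and SKIL, a repressor of SMAD proteins, 12.2, 17.1, 10 and 9.38. Replicate 2 was again the highest for all 5. The kinase MAP3K8, the pro-apoptotic BMF, the GTPase-related RASD1 and RAB30, the actin-binding SYNPO, CYP1A1 and MTMR9 were also highest in replicate 2, with BMF the highest of them at 9.83, 15.1, 8.6 and 8.51 scaled CPM.

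A few genes had another order. The zinc finger gene ZNF844 had 2.99, 2.54, 6.36 and 2.48 scaled CPM and stood alone in replicate 3. SPAG4, a nuclear envelope protein, had 3.92, 4.07, 5.54 and 8.04 and the homeobox gene OTX1 23.9, 20, 31.4 and 38.9, both highest in replicate 4. ZNF850 had 4.08, 3.69, 2.14 and 2.67 and was lowest in replicate 3. OTX1 was also spread in shTST, with a biological CV of 56.5%, but had 7.48% in overTST.

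**Figure D4:**
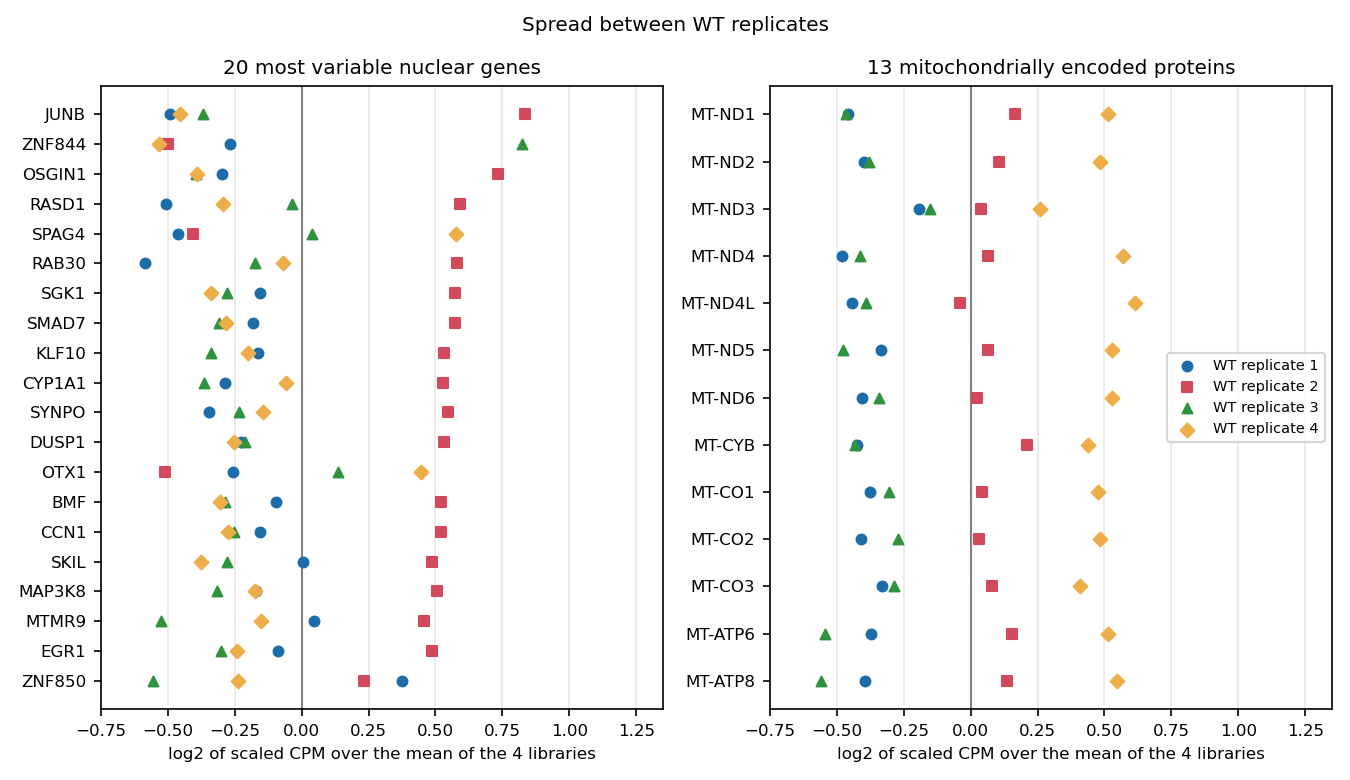
Log2 of TMM-scaled CPM in each WT library over the mean of the 4, for the 20 most variable nuclear genes other than near-copies of mitochondrial genes (left) and the 13 mitochondrially encoded proteins (right). Replicate 2 lies farthest to the right for most nuclear genes in the left panel, and replicate 4 for all 13 in the right panel.

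In most of the liver lists the median spread was above that over all genes. Variable members included CYP1A1 (29.8%), IGFBP1, an insulin-repressed binding protein (87.9, 116, 113 and 156 scaled CPM, 23.8%), ANGPTL8 (20.4%) and APOF (15.1%). FABP1, the liver fatty acid carrier, is in the fat metabolism list, which is not among the liver lists. It had 121, 123, 169 and 164 scaled CPM and a biological CV of 17.8%, with replicates 3 and 4 above 1 and 2. By list, the median biological CV ran from 4.14% for sugar metabolism and 4.59% for the urea cycle to 8.45% for apolipoproteins and 9.6% for the 7 measured cytochrome P450 enzymes, beside 4.77% over all genes. Outside the liver lists, HNF4A, at 0.944%, and FTH1, at 0.844%, were among the steady genes.

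**Figure D5:**
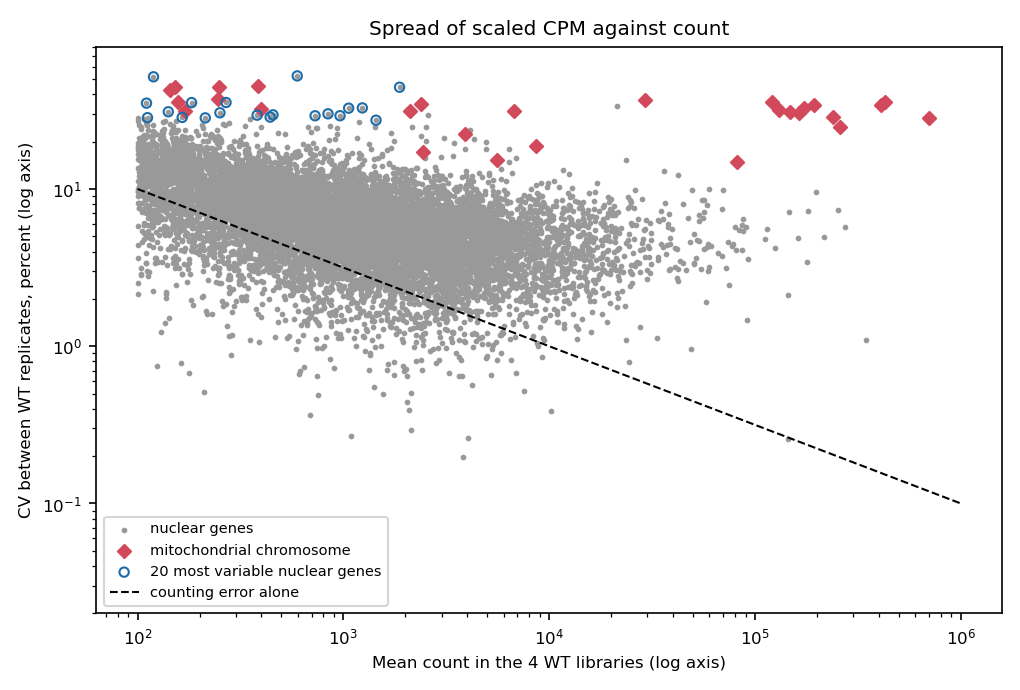
CV of TMM-scaled CPM between the 4 WT libraries in percent against mean count, both on log axes, for genes with a mean count of 100 or more, with the dashed line for counting error alone. Genes of the mitochondrial chromosome lie above most nuclear genes of similar count, and 12 of its 13 proteins are over 20%.

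The same genes were looked up in the spread of the other groups. Of the 100 most variable WT genes, 81 had 100 counts or more on average in shTST and 43 were in its most variable 10%, the share that all genes have by construction. In overTST 72 could be measured and 20 were in the top 10%. Of the mitochondrial genes among them, 20 of 22 were in that group in shTST and 5 of 23 in overTST. JUNB had a biological CV of 0% in shTST, no more than counting allows, and 8.02% in overTST, beside 52.2% in WT. Low counts raise the CV in every group, so the shares are not independent of level.

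Replicate 2 also had the most counts of the 4 and differed in other ways. In log2 scaled CPM, the leading component (45.4% of the variance between the 4 libraries) set replicate 2 against replicate 3, and the next (29.1%) set replicate 1 apart. Across 10942 genes, the deviation from the mean of the 4 libraries had a Spearman correlation with exonic length of 0.11, 0.31, -0.35 and -0.10 in replicates 1 to 4 (across genes, which are not independent replicates). With that trend removed, 89 of the 100 most variable genes remained, and 42 did when replicate 2 was left out. The list also rests on the count minimum, since the 100 most variable genes shared 9 with it at a minimum mean count of 20 and 29 at 1000. What set replicate 2 apart was not tested.

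Since the WT libraries are the controls of both comparisons, their levels and spread enter every fold change. In shTST against WT, 24 of the 100 highest WT genes passed (edgeR, adjusted p of 0.05 or less), beside 16.1% of 14584 genes tested, with 15 higher (6.69% of all) and 9 lower (9.4%). This count was 13 without shTST replicate 1 and 43 with no filter on low counts. In overTST against WT, 72 passed, beside 33.9%, with 67 higher (15.7%) and 5 lower (18.2%). The median log2 fold change of these 100 was 0.24 in overTST, against 0.00 over all genes, and less than 0.01 from 0 in shTST. High genes have small counting error. Both comparisons use the same WT libraries, which also served to rank these 100 genes. In overTST all 13 mitochondrially encoded proteins and 73 of 79 cytosolic ribosomal proteins were called higher. Members of such families may not be independent. Of the 100 highest genes off the mitochondrial chromosome, 65 were called in overTST, 57 higher and 8 lower, beside 33.9% of all genes. Among the highest nuclear genes, ALB rose in shTST (log2 fold change 0.39 ± 0.08, SE, adjusted p = 0.0014), as did AFP (0.49 ± 0.08, adjusted p = 2.15e-04). EEF2 and AHSG fell in shTST, with log2 fold changes of -0.22 and -0.17, and APOH rose with 0.20 (adjusted p = 0.00891, 0.032 and 0.037), but over the alternative settings and left-out libraries their adjusted p reached 0.0536, 0.124 and 0.119. In overTST, APOA2 (0.23), APOA1 (0.24), ACTB (0.23) and GAPDH (0.25) rose (edgeR adjusted p = 0.00837, 0.0167, 0.00312 and 0.00195), with the highest adjusted p over the alternatives at 0.103 for APOA1 and under 0.05 for the other 3.

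For the liver genes, 204 of 265 passed the count filter in shTST against WT and 67 were called, 32.8% beside 16.1% of all genes (38 higher, 29 lower, median log2 fold change 0.02). In overTST against WT 202 were tested and 82 were called, 40.6% beside 33.9% (45 higher, 37 lower, median 0.03). Without WT replicate 2 the shTST calls were 29 higher and 32 lower. Of the 43 genes under 0.1 TPM in WT, none reached 0.1 TPM in every library of shTST or of overTST.

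The 13 mitochondrially encoded proteins show how the spread in WT bears on a call. WT replicates 2 and 4 had 9.42 and 12% of counts on the mitochondrial chromosome and replicates 1 and 3 had 6.91 and 6.95%, while shTST ranged from 6.84 to 8.65% and overTST from 10.8 to 11.7%. WT replicate 4 was thus above every overTST library. In overTST against WT, all 13 passed as higher (median log2 fold change 0.42), beside 15.7% of all genes. The 13 are cut from long precursors and WT replicate 4 was highest for each, so they are not independent calls. DESeq2 gave the same median (0.42) but 1 call. Without WT replicate 1 or 3 the calls were 7 and 8, with medians of 0.31 and 0.32, and without WT replicate 4 the median was 0.66 with 13 calls. In shTST against WT 1 passed as lower, MT-CO2 (median -0.20 over the 13), beside 9.4% of all genes. Leaving out WT replicate 4 brought the median to -0.02, and leaving out replicate 1 or 3 brought it to -0.33 each time. The count became 5 without WT replicate 1 or 3 and 0 without WT replicate 4, or without shTST replicate 2, 3 or 4, and 12 with no filter on low counts.

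The calls of the variable nuclear genes also moved with the WT libraries used. Of the 73, 15 were called lower and 0 higher in shTST, and 20 lower and 4 higher in overTST. These are 20.5 and 32.9% of the 73, beside 16.1 and 33.9% of all genes. Since they were chosen in the WT libraries that serve as controls, nothing is read from these counts. The same limit holds for the adjusted p of the single genes below. Without WT replicate 2 they were 10 lower and 3 higher in shTST, and 16 and 10 in overTST, beside 13.1 and 29.3% of all genes. Over all alternatives the calls were 8 (DESeq2) to 29 (no filter) in shTST and 15 to 36 with the same settings in overTST. JUNB had a log2 fold change in shTST of -0.69 (adjusted p = 0.0229) with all WT libraries and -0.22 (adjusted p = 0.079) without WT replicate 2, and its adjusted p ranged from 6.92e-15 to 0.158 over all alternatives run. For EGR1 the values were -0.50 (adjusted p = 0.00504) and -0.28 (adjusted p = 0.00449), and for OSGIN1 -0.77 (adjusted p = 0.00369) and -0.40 (adjusted p = 2.06e-04), with the highest over the alternatives at 0.0534 and 0.0522. For CYP1A1 the values were -1.53 and -1.28 (edgeR adjusted p = 5.04e-06 and 5.06e-07, and 5.87e-05 at most over the alternatives).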

How the data were processed

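The authors deposited a table of raw counts per gene for each library, in which the last column holds whole counts and the Length column the exonic bases of the gene. Per the labels' processing notes, reads were trimmed (Trimmomatic 0.36), aligned to GRCh38 (STAR 2.5.2b) and counted (featureCounts of Subread 1.5.2). Strand setting and annotation release are not given in the sources used here, so overlapping and antisense genes cannot always be told apart. WT libraries held 28866175 to 45120508 counts, and all 12 held 22911380 to 45120508.

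TPM was computed here from counts and Length over all 57500 genes, and nuclear TPM without the mitochondrial chromosome. Scaled CPM used TMM factors. Biological CV is the square root of the squared CV less the counting variance, for genes with a mean count of 100 or more. Group comparisons used edgeR 4.0.16 (quasi-likelihood test, TMM, filterByExpr, Benjamini-Hochberg adjustment over all genes tested, threshold 0.05) in R 4.3.3, each with the 4 libraries of both groups, and were tested on simulated data. Figures and summaries used Python 3.11.15, pandas 2.3.3, numpy 2.4.6 and matplotlib 3.10.9. Alternatives were DESeq2 1.42.0, RLE size factors, no filter, the replicate block, a lower minimum count of 20, a length correction (lowess span 0.3), CPM in place of TPM and leaving out each library. A minimum count of 1000 and leaving out the mitochondrial chromosome from the spread were added after seeing the data.

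Gene lists and members were chosen with earlier results of these data known. Genes named are the 20 highest, the 20 most variable, the 5 steadiest of the 500 highest, the 4 markers, TST, the 3 highest and the most variable of each list, and the liver genes under 0.1 TPM in all WT libraries. Other genes named were picked for their known role after values were seen, and XIST and genes of chromosome Y were left out. Some genes that the rule names are not reported here. Gene positions come from the deposited tables (GRCh38) and symbols from matching gene identifiers (56410 of 57500 matched). Gene types come from GENCODE 29, and promoter sequences from RefSeq. With 4 libraries per group the p-values set a group difference against the spread between these cultures, which need not cover that between separate transductions. Floors of 3 counts cover counting error only.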

Additional observations from a re-analysis of the deposited data

Results flagged for a closer look

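Of 109 values looked at in the 4 WT libraries, 14 had 1 library whose gap to the nearest of the others was a larger part of the whole range than Dixon's 95% critical value for 4 samples. Chance alone gives this in about 1 in 20 groups, and the genes looked at for spread had been picked for being variable. The library that stood apart was replicate 2 in 8, replicate 4 in 3, replicate 3 in 2 and replicate 1 in 1. Why was not tested.

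Replicate 2 was alone high, in TMM-scaled CPM, for JUNB (gap of 0.94 of the range), OSGIN1 (0.941), SGK1 (0.846), SMAD7 (0.89), KLF10 (0.844), DUSP1 (0.962), CCN1 (0.88) and MAP3K8 (0.862). The rise over the highest of the other 3 libraries was largest for JUNB, from 12.3 to 28.4, and OSGIN1, from 41.1 to 84.2. ZNF844 was alone high in replicate 3 (0.87 of the range), with 6.36 scaled CPM against 2.48 to 2.99.

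Over the nuclear total, FTL was low in replicate 4, with 27333 TPM against 30169 to 30620.3 (0.863 of the range), and with it the share of iron and metal handling, at 3.42% against 3.73 to 3.75% (0.936). APOA2 was high in replicate 3, with 8055 against 6964 to 7076 nuclear TPM (0.898). The share of fatty acid and sterol metabolism was high in replicate 4, at 0.546% against 0.524 to 0.528% (0.842). The share of chaperones was high in replicate 1, at 2.2% against at most 2.15% (0.88).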

How the results depend on the processing

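Of 85 alternative values of 11 results, 76 stayed close to the reported value (within 1 SD between the WT libraries for the shares of transcripts, and within 1.5 times for counts of genes and the median CV) and 9 moved. With CPM in place of TPM, which does not divide by length, the 100 highest WT genes held 27.9%, plasma carriers 2.49% and mitochondrially encoded proteins 8.71%. With the mitochondrial chromosome left out of the total they held 26.7%, 3.23% and, for ribosomal proteins, 8.35%, and no value exists for the mitochondrial genes themselves. Absent liver genes numbered 23 with no count at all and 69 under 1 TPM. Genes called in shTST against WT ranged from 1513 to 2336 with 1 library left out, lowest without shTST replicate 1, and in overTST against WT from 3979 to 5263. DESeq2 called 2510 and 4776. Fitted with a replicate block, edgeR called 2980 in shTST and 5166 in overTST, but the numbers were not taken to pair the libraries, since not every pair correlated above 0.1. Deviations of same-numbered WT and shTST libraries correlated at 0.116, 0.165, 0.281 and -0.166, and of WT and overTST at 0.24, -0.0082, 0.0711 and 0.0537. WT replicates 1, 2 and 3 correlated best with the shTST library of their own number and replicate 4 did not, a hint from the data and not from the design. Depth limits what absence means for short genes.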
